A study of Mus musculus with 6 samples.

Results

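Integrin and selectin-related genes of leukocyte adhesion were followed across the 6 libraries: 9 genes taken by symbol, all present among the 18478 genes of the count table. They encode 4 integrin alpha chains (Itga4, Itgae, Itgal and Itgav), 3 integrin beta chains (Itgb7, Itgb2 and Itgb3), the hyaluronan receptor CD44 (Cd44) and the selectin ligand PSGL-1 (Selplg). The samples are group 2 innate lymphoid cells (ILC2s), tissue lymphocytes without rearranged antigen receptors that make type 2 cytokines, sorted from the lungs of BALB/c mice aged 6 weeks. One group of 3 samples came from WT mice. The other group of 3 came from CB2 KO mice, which lack cannabinoid receptor 2, a G protein-coupled receptor encoded by Cnr2. All mice had received 3 intranasal injections of 1 µg recombinant IL-33, and all cells were then kept with IL-2 and IL-7 (10 ng/mL each) for 24 h before RNA was taken, so that levels refer to cytokine-activated cells after culture. The labels name neither the sorting gate nor the knockout allele, and do not say whether the 3 samples of a group came from separate or pooled mice; p-values therefore reflect only how much these samples vary, and that variation could be technical.

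Integrins are heterodimers of 1 alpha and 1 beta chain that bind matrix proteins or receptors on other cells. Talin and kindlin bind the beta tail inside the cell and switch the heterodimer to its high-affinity form. Alpha 4 with beta 7 binds MAdCAM-1 and VCAM-1 and guides lymphocytes to gut and inflamed tissue, while alpha E (CD103) with beta 7 binds E-cadherin on epithelium. Alpha L with beta 2 forms LFA-1, the receptor for ICAMs, which has been described as an adhesion receptor of lung ILC2s. Alpha v with beta 3 binds vitronectin and osteopontin, and alpha v heterodimers can release active TGF-beta. PSGL-1 supports rolling on selectins once it has been glycosylated, and CD44 anchors cells to hyaluronan.

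Each library held between 17141698 and 21621008 estimated counts, given here as CPM, the counts scaled to a common library size after TMM, which centres the libraries on each other. The defining ILC2 genes Gata3 and Il1rl1 were high in all 6 libraries, at 932 to 1095 CPM and 896 to 1000 CPM. Each of the first 2 principal components set 1 library against the other 5: the one labelled CB2 KO replicate 1 on component 1 (37.6% of the variance) and WT replicate 1 on component 2 (21.4%). CB2 KO replicate 1 had 9.24 CPM of Cnr2, close to the lowest WT library, against 1.60 and 3.84 in CB2 KO replicates 2 and 3. WT replicates 1 to 3 had 9.32, 17.4 and 15.8 CPM. The log2 difference of Cnr2 was -1.52 (SE 0.56), and -2.42 (SE 0.59) without CB2 KO replicate 1. With all libraries Cnr2 was not called by edgeR's quasi-likelihood test (adjusted p = 0.514) or by DESeq2 (adjusted p = 0.251). Without the knockout allele, counts over the whole gene cannot show a deleted stretch. For 7 of the 9 adhesion genes CB2 KO replicate 1 was the lowest or the highest of all 6, against 2 or 3 of 9 for any other library; over all 14084 tested genes it was at an end for 47.4%, and the other libraries for 24.4 to 34.7%, WT replicate 1 having the highest of these. Differences of the 9 genes are therefore given with and without CB2 KO replicate 1. Without WT replicate 1, Itgb2 went from 0.07 to -0.002 on the log2 scale and Cd44 from -0.27 to -0.18; Itgb7 was at -0.42 and Selplg at -0.13. In such bulk RNA, fewer cells of a type and less RNA per cell cannot be told apart.

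None of the 9 adhesion genes passed the test between CB2 KO and WT over all genes (0 of 9; edgeR's quasi-likelihood test, Benjamini-Hochberg adjusted, adjusted p of at least 0.358), against 0.107% of all tested genes. The means of 7 were lower and those of 2, Itgav and Itgb2, higher in CB2 KO; among all genes 50.0% had a lower mean. At an unadjusted p under 0.05, the genes were Itgb7 and Selplg, 2 of 9, against 8.60% of all genes, or 4.27% when only lower means are counted. These 2 were also the genes whose CB2 KO libraries all lay below every WT library, as 7.20% of all genes did (6.91% lay above and 14.1% either way). DESeq2 called 1 of the 9, Itgb7, lower in CB2 KO, against 1.40% of all genes called lower, 1.19% called higher and 2.58% in all. The median log2 difference of the 9 genes was -0.19, and -0.09 without CB2 KO replicate 1; over all genes it was 0.00 in both fits.

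**Figure D1:**
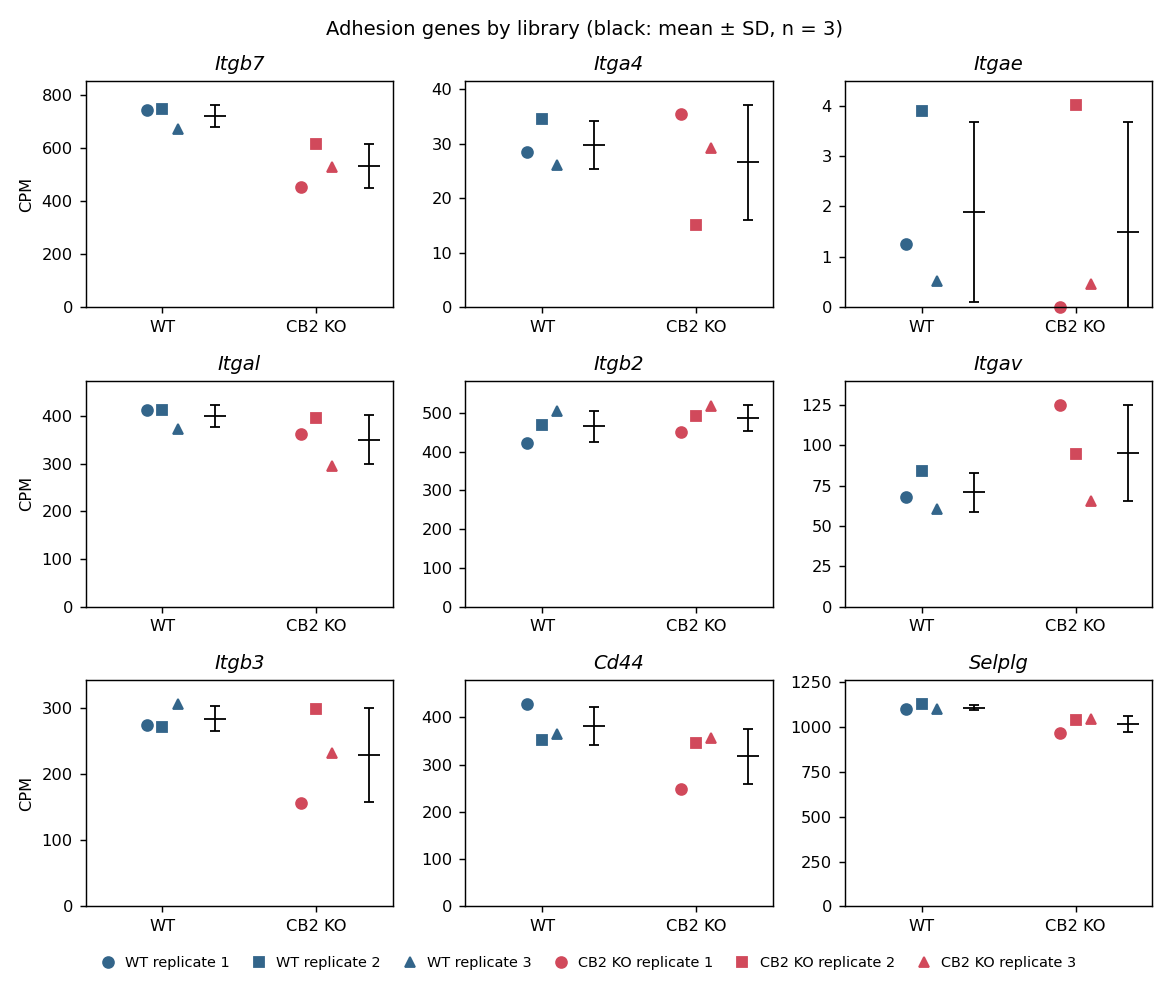
CPM of each of the 9 adhesion genes in the 3 WT (blue) and 3 CB2 KO (red) libraries, with the marker shape giving the replicate number and black bars the group mean ± SD; all axes start at 0, which hides the lower end of the bar of Itgae in CB2 KO. Itgb7 and Selplg are the 2 panels in which the groups do not overlap, and the red circle (CB2 KO replicate 1) lies at an end of 7 panels.

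Itgb7 encodes beta 7, the shared partner of alpha 4 and alpha E (chromosome 15, 102215995 to 102231944, minus strand, GRCm38/mm10). It was at 741, 744 and 672 CPM in WT replicates 1 to 3 and at 452, 615 and 526 in CB2 KO replicates 1 to 3. Every CB2 KO library was below the lowest WT library. WT averaged 719 ± 40.7 CPM and CB2 KO 531 ± 81.8 CPM (± SD, n = 3 per group), a fitted fold of 0.739. The log2 difference was -0.44 (SE 0.11, single-gene 95% interval -0.70 to -0.17), with an adjusted p of 0.358 by edgeR's quasi-likelihood test, Benjamini-Hochberg adjusted, and an adjusted p of 0.00615 by DESeq2 on the same counts. By unadjusted p it ranked 219 of 14084 genes. Leaving out CB2 KO replicate 1 gave a difference of -0.33 (SE 0.09), with an adjusted p of 0.505 by the same edgeR test.

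Markers of ILC2s and of other cells were read in the same libraries as 13 lists, of which no gene passed edgeR's test over all genes. DESeq2 called 1 of 15 ILC2 markers higher and 2 lower, against 1.19% and 1.40% of all genes. It also called 1 of 8 tested mast cell and basophil markers higher, and 1 of 4 tested macrophage and monocyte markers. All 8 tested of 11 mast cell and basophil markers had a higher mean in CB2 KO, with a summed level of 30.5 to 49.4 CPM in WT and 61.6 to 122 in CB2 KO. The 4 tested of 10 macrophage and monocyte markers also had a higher mean, summing to 12.2 to 59.2 CPM in WT and 150 to 169 in CB2 KO. In CB2 KO most of that sum was Chil3. The other 5 in the table summed to 9.41 to 11.7 CPM in WT and 20 to 42.7 in CB2 KO, and Cd68 overlapped between the groups. Every CB2 KO library lay above every WT library in 3 of the 8 tested mast cell and basophil markers. The same held for 2 of the 4 tested macrophage and monocyte markers, against 6.91% of all genes. Of the defining genes of these 2 lists, Tpsb2 was at 3.31, 1.46 and 2.09 CPM in WT and 32.3, 15.7 and 21.8 in CB2 KO. Cpa3 was at 10.8 to 27.7 CPM over the 6 libraries. Cpa3 overlapped between the groups, Csf1r was at 0 in 3 of 6, and Adgre1 was not among the 18478 genes. All 5 tested of 8 epithelial markers had a lower mean in CB2 KO, with overlapping sums of 31.0 to 144 CPM in WT and 26.4 to 50.8 in CB2 KO. Of the 15 ILC2 markers, 12 had a lower mean in CB2 KO (median log2 difference -0.21), against 50.0% of all genes. An unadjusted p under 0.05 was found for 7 of 15, against 8.60% of all genes. In 8 of 15 every CB2 KO library lay below every WT library and in 1 above, against 7.20% and 6.91% of all genes. The 15 ILC2 markers summed to 13319 to 14763 CPM in WT and 13607 to 15953 in CB2 KO, of which Il5 made up more than all the others together. The other 14 summed to 6348 to 6893 CPM in WT and 5719 to 5975 in CB2 KO, without overlap. The part of these cell markers in the values of Itgb7 and Selplg was not tested.

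The 250 bases before the RefSeq start of Itgb7 and of its partner Itga4 are shown because these chains of 1 heterodimer lay far apart in level. RefSeq promoters (GRCm38.p6) were at hand for 4 of the 9 genes, Itga4, Itgav, Cd44 and Itgb7. Capitals mark 3 short motifs searched on both strands: GGAAG, a core letter string of ETS factors, TGTGGT of RUNX factors and AGATAA of GATA factors, none of which overlapped another here. The first sequence is chr15:102231936-102232185, minus strand, and the second is chr2:79255176-79255425, plus strand.
Itgb7: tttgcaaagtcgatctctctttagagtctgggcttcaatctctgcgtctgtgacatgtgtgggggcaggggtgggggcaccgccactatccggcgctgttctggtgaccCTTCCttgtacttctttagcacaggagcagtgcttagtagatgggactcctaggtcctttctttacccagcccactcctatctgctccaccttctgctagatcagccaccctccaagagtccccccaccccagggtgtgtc
Itga4: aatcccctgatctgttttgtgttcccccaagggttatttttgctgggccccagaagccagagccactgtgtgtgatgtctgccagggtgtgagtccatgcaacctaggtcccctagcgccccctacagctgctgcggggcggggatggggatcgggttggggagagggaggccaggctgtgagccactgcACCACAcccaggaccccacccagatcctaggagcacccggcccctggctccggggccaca
The Itgb7 window held 1 match, to GGAAG on the strand opposite to the one printed, 137 to 141 bases before the start. In the Itga4 window the only match was to TGTGGT, also on the opposite strand, 55 to 60 bases before the start. Among all 32851 windows of this length in the table, 64.1% held GGAAG, 14.0% TGTGGT and 10.0% AGATAA. A GC content of 56.0% was computed for Itgb7 and 64.0% for Itga4. The Cd44 window, which is not shown, held 4 matches to GGAAG and 1 to AGATAA, and that of Itgav 2 to GGAAG.

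Itga4, which encodes alpha 4 (chromosome 2, 79255426 to 79333123, plus strand), was at 28.4, 34.6 and 26.1 CPM in WT and at 35.5, 15.0 and 29.2 in CB2 KO. The highest and the lowest of the 6 values were both from CB2 KO libraries, so the groups overlapped. Its log2 difference was -0.18 (SE 0.33, 95% interval -0.97 to 0.60; adjusted p = 0.920, edgeR's quasi-likelihood test, Benjamini-Hochberg adjusted). It was -0.47 without CB2 KO replicate 1 and 0.13 without CB2 KO replicate 2, so its sign rested on single libraries. Exons of Itga4 share 1124 nt with Cerkl on the opposite strand, which had 0 to 227.8 counts per library against 317 to 715 for Itga4, and whether reads were counted by strand is not stated in the sources used.

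Itgae, which encodes CD103 (chromosome 11, 73090583 to 73147446, plus strand), was close to the detection limit. The counts were 27, 80 and 9 in WT and 0, 85 and 8 in CB2 KO, or 1.26, 3.90 and 0.509 CPM and 0, 4.01 and 0.465 CPM. For the count of 0 in CB2 KO replicate 1, the floor of 3 counts was 0.149 CPM and the exact Poisson 95% upper limit 0.183 CPM. The exact Poisson intervals of the highest libraries were 3.09 to 4.86 CPM for WT replicate 2 and 3.20 to 4.96 CPM for CB2 KO replicate 2, covering counting error only. Spread within each group was thus far beyond counting error, and each group held 1 library with most of the counts. The log2 difference of -0.29 (SE 1.17) had a 95% interval from -2.89 to 2.31 (adjusted p = 0.964, edgeR's quasi-likelihood test, Benjamini-Hochberg adjusted). These libraries therefore could not exclude a change of several fold in either direction. The sign of the difference rested on single libraries, with 0.32 without CB2 KO replicate 1, 0.78 without WT replicate 2, 0.08 without CB2 KO replicate 3 and -3.14 without CB2 KO replicate 2. CD103 is also found on T cells. The 8 of 11 T cell markers in the table summed to 192 to 210 CPM in WT and 203 to 238 in CB2 KO, most of it from Trbc1 and Trbc2; the other 6 summed to 19.6 to 27.4 CPM in WT and 35.8 to 45.8 in CB2 KO. Of 6 tested, 5 had a higher mean in CB2 KO (median log2 difference 0.68). The defining genes Cd3e and Cd3d were at 0 to 3.18 and 0.0581 to 0.802 CPM, and Cd3g was at 9.60, 17.2 and 15.1 CPM in WT and 25.6, 28.9 and 23.9 in CB2 KO. CB2 KO replicate 2, with the highest Itgae, also had the highest Cd3g, whereas CB2 KO replicate 1 had 25.6 CPM of Cd3g and 0 of Itgae. WT replicate 2, at 3.90 CPM of Itgae, had 17.2 CPM of Cd3g. The part of T cells in the Itgae values was not tested. The gene Haspin lies within Itgae on the opposite strand with 825 to 1326 counts per library, and shares no exonic base with it.

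Both chains of LFA-1 were abundant in both groups. Itgal, for alpha L (chromosome 7, 127296260 to 127335138, plus strand), was at 413, 413 and 372 CPM in WT and 361, 395 and 295 in CB2 KO. In CB2 KO, 2 libraries were below the WT range and 1 was within it. Its log2 difference was -0.19 (SE 0.11, 95% interval -0.45 to 0.08), and -0.20 without CB2 KO replicate 1, -0.08 without CB2 KO replicate 3 and -0.28 without CB2 KO replicate 2. Itgb2, for beta 2, the common chain of the leukocyte integrins (chromosome 10, 77530252 to 77565708, plus strand), was at 423, 468 and 504 CPM in WT and 451, 491 and 518 in CB2 KO. The ranges overlapped almost wholly, with a log2 difference of 0.07 (SE 0.09), and the 95% interval of -0.14 to 0.27 was the narrowest among the 7 integrin chains; without WT replicate 1 the difference was -0.002. Neither passed the test (adjusted p = 0.697 for Itgal and 0.883 for Itgb2, edgeR's quasi-likelihood test, Benjamini-Hochberg adjusted).

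Itgav, for alpha v (chromosome 2, 83724397 to 83806916, plus strand), was at 67.9, 84.3 and 60.8 CPM in WT and at 125, 94.8 and 65.5 in CB2 KO. In CB2 KO, 2 libraries exceeded all WT libraries and the third lay inside their range. Itgb3, for its partner beta 3 (chromosome 11, 104608000 to 104670476, plus strand), was at 275, 272 and 306 CPM in WT and at 157, 299 and 233 in CB2 KO. CB2 KO replicate 1 therefore had the highest Itgav and the lowest Itgb3 of the 6 libraries. The log2 differences were 0.43 (SE 0.25) for Itgav and -0.30 (SE 0.21) for Itgb3, and without that library 0.19 (SE 0.22) and -0.08 (SE 0.13). With all libraries the adjusted p was 0.690 and 0.749 (edgeR's quasi-likelihood test, Benjamini-Hochberg adjusted). Exons of Itgav share 634 nt with the noncoding Gm13684 on the opposite strand, at 18.1 to 80.6 counts per library against 1074 to 2506 for Itgav. Platelets carry beta 3. Their markers Pf4 and Ppbp were at 0 to 3.26 and 0 to 3.03 CPM, and the 3 of 10 platelet markers in the table summed to 0 to 0.566 CPM in WT and 0.849 to 4.62 in CB2 KO; their part in the Itgb3 values was not tested.

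Cd44 (chromosome 2, 102811141 to 102901665, minus strand) was at 427, 352 and 364 CPM in WT and at 249, 346 and 356 in CB2 KO. CB2 KO replicate 3 was within the WT range, replicate 2 just below it and replicate 1 far below it. The log2 difference was -0.27 (SE 0.15, 95% interval -0.62 to 0.08), and -0.12 (SE 0.10) without that library (adjusted p with all libraries = 0.669, edgeR's quasi-likelihood test, Benjamini-Hochberg adjusted). Counts per gene do not separate the variant exons by which CD44 isoforms differ.

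Selplg, for PSGL-1 (chromosome 5, 113818536 to 113832644, minus strand), had the steadiest values of the 9 genes. It was at 1102, 1127 and 1100 CPM in WT and 968, 1043 and 1044 in CB2 KO. The groups did not overlap, and the coefficient of variation was 1.34% in WT and 4.29% in CB2 KO. The difference was small, with a fold of 0.918 and a log2 difference of -0.12 (SE 0.05, 95% interval -0.24 to -0.01). It did not pass (adjusted p = 0.555, edgeR's quasi-likelihood test, Benjamini-Hochberg adjusted; adjusted p = 0.173 by DESeq2). Without CB2 KO replicate 1 the log2 difference was -0.09 (SE 0.05), with an unadjusted p of 0.103 and an adjusted p of 0.697 by the same edgeR test.

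**Figure D2:**
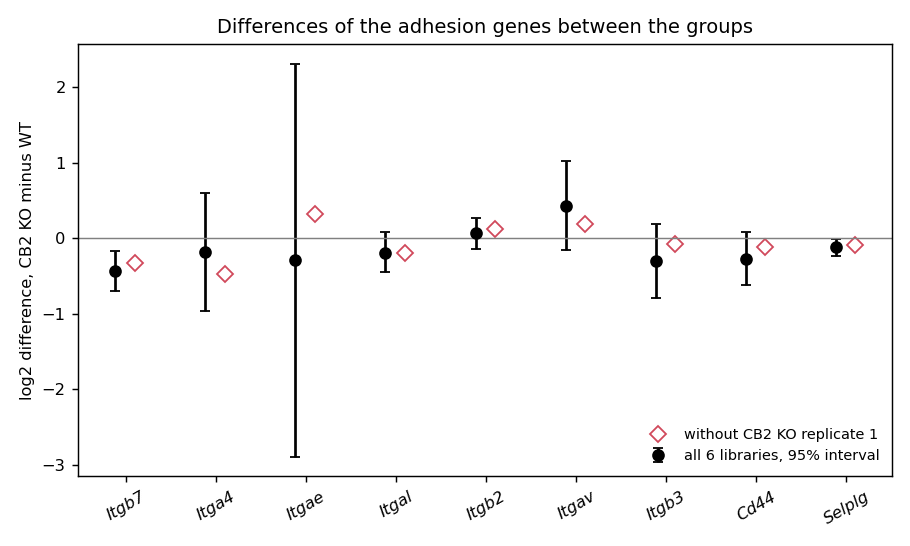
Log2 differences (CB2 KO minus WT) of the 9 adhesion genes from the edgeR fit, with single-gene 95% intervals that are not adjusted for the number of genes (black, all 6 libraries), and the same difference without CB2 KO replicate 1 (open diamonds). Only the intervals of Itgb7 and Selplg lie on one side of 0, and the interval of Itgae is the widest, from -2.89 to 2.31.

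Levels of different genes were compared per kb of annotated exon (CPM per kb, exon union in GENCODE M21). Selplg and Itgb7 were the most abundant, with a mean of 249 ± 13.5 and 226 ± 42.6 CPM per kb over the 6 libraries (mean ± SD), and exceeded 98.3% and 98.0% of the tested genes. Their ranges overlapped, and Selplg was above Itgb7 in 4 of 6 libraries. Itgb2 followed with 156 ± 11.6 CPM per kb. Its range met that of Itgb7 through CB2 KO replicate 1, although Itgb7 was above it within each of the 6 libraries. Itgal (57.1 ± 6.79), Cd44 (51.5 ± 8.42) and Itgb3 (43.5 ± 9.39 CPM per kb) formed a middle group whose neighbours overlapped. Itgav at 7.72 ± 2.24, Itga4 at 2.01 ± 0.531 and Itgae at 0.369 ± 0.393 CPM per kb came last, and each of these was separated from its neighbours in all libraries. The order of the 9 genes was the same with the longest annotated transcript as the length. It was also the same with the authors' normalized signal, which rescales the same counts and so is no independent check.

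**Figure D3:**
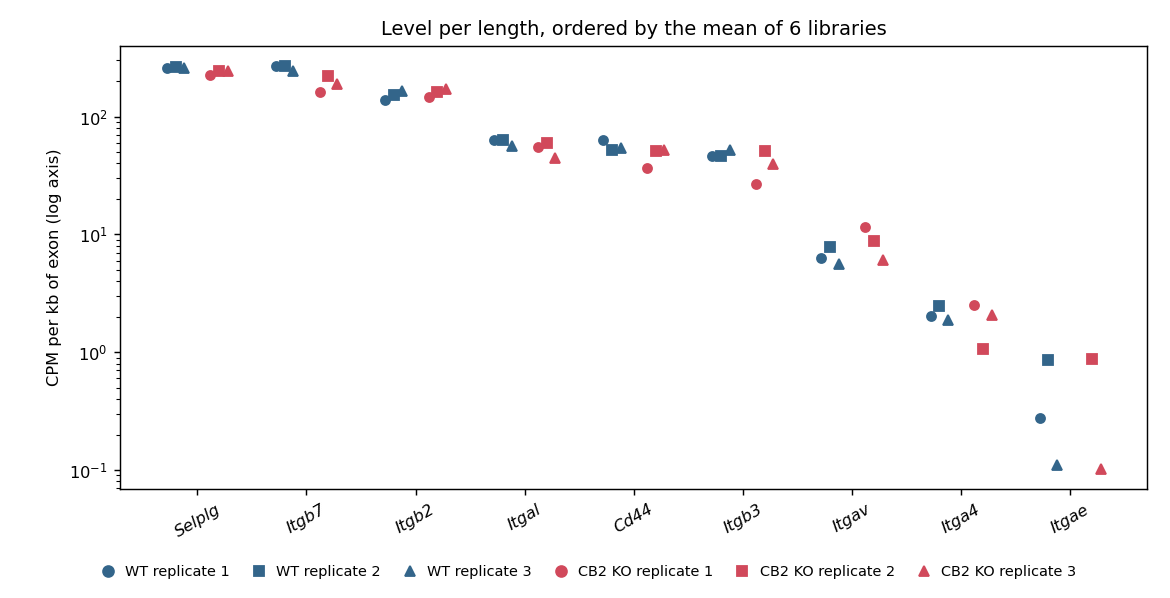
Level per kb of exon (log axis) of the 9 adhesion genes in each library, ordered by the mean over 6 libraries; the value of 0 of Itgae in CB2 KO replicate 1 cannot be drawn on this axis. The 3 beta chains lie at 26.6 CPM per kb or more, and of the 4 alpha chains Itgal alone reaches their range.

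On this scale each beta chain was above its alpha partners in all 6 libraries. Itga4 was at 0.00482 to 0.0156 of the level of Itgb7, Itgav at 0.109 to 0.436 of Itgb3 and Itgal at 0.265 to 0.454 of Itgb2, over the 6 libraries. Itgae was at 0.00394 of the level of Itgb7 or less. The 4 alpha chains together amounted to 13.3 to 20.5% of the 3 beta chains. Among the 3 beta chains, Itgb7 made up 59.1, 57.4 and 52.8% of the summed CPM per kb in WT and 48.4, 51.2 and 47.6% in CB2 KO, ranges that do not overlap; this share was chosen after the values had been seen and was not tested. Itgb2 made up 30.6 to 35.9% in WT and 37.1 to 43.8% in CB2 KO.

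The ratio of alpha to beta chain was compared between the groups for 4 heterodimers, since the scaling of a library cancels in it. The log2 ratio of Itgav to Itgb3 was -2.02, -1.69 and -2.33 in WT and -0.33, -1.66 and -1.83 in CB2 KO. CB2 KO replicate 1 stood far above the other 5. The mean difference was 0.74 (exact two-sided permutation test, p = 0.200; Benjamini-Hochberg adjusted over the 4 ratios, 0.600), and 0.27 without that library. For Itgal to Itgb2 the ratio was -0.22 ± 0.20 in WT and -0.48 ± 0.29 in CB2 KO (log2, mean ± SD, n = 3 each; exact permutation p = 0.300, adjusted 0.600). Itga4 to Itgb7 was -4.60 ± 0.16 and -4.40 ± 0.87 on the same scale (n = 3 each; exact permutation p = 0.700, adjusted 0.800). Its difference of 0.20 became -0.16 without CB2 KO replicate 1. Itgae to Itgb7, with the library at 0 set to 3 counts, was -9.05 ± 1.40 and -9.66 ± 2.19 (n = 3 each; exact permutation p = 0.800, adjusted 0.800), and its difference of -0.61 turned to 0.34 without that library and to 0.13 without WT replicate 2. The smallest p that 3 against 3 samples allow is 0.1.

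**Figure D4:**
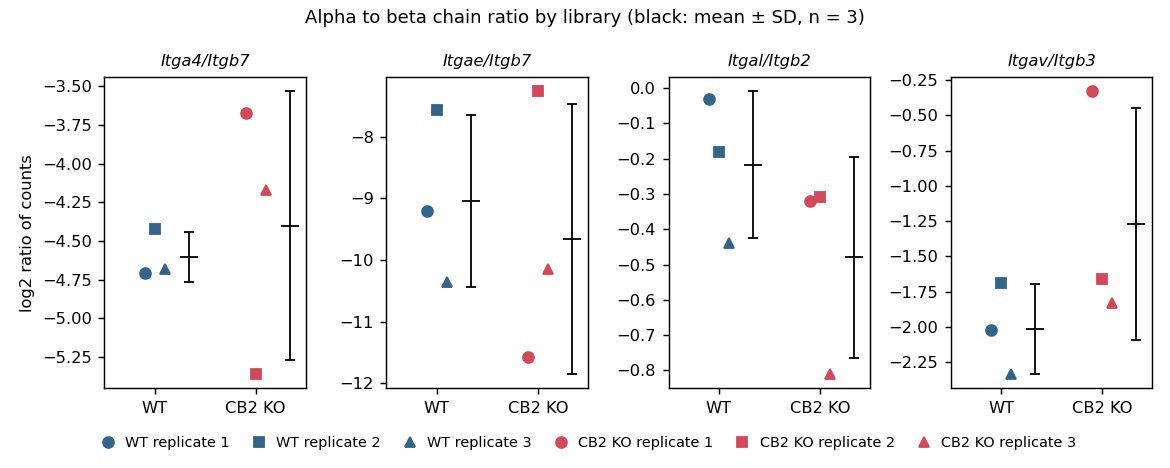
Log2 ratio of alpha to beta chain counts, not divided by length, in each library for 4 integrin heterodimers, with black bars for the group mean ± SD; each panel has its own axis. The groups overlap in all 4 panels, and CB2 KO replicate 1 (red circle) is the highest for Itga4/Itgb7 and Itgav/Itgb3, with -3.67 and -0.33, and the lowest for Itgae/Itgb7.

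Around these genes, 7 lists of adhesion genes were read in the same fit. None of their tested genes passed edgeR's test over all genes, with or without CB2 KO replicate 1. For the counts below, 8.60% of all genes had an unadjusted p under 0.05 in that test. DESeq2 called 1.40% of all genes lower and 1.19% higher. Of 7 tested among 19 other integrin chains, 0 passed, 1 had an unadjusted p under 0.05 and DESeq2 called 0; the median log2 difference was -0.15, and 0.22 over 9 tested without CB2 KO replicate 1. Itgb1, the partner of alpha 4 in VLA-4, was at 185, 155 and 197 CPM in WT and 301, 184 and 158 in CB2 KO. Itgax, which encodes CD11c of macrophages and dendritic cells, was at 0, 2.05 and 0 CPM in WT and 7.05, 2.26 and 5.76 in CB2 KO. All 3 CB2 KO values of Itgax were above the WT values, as for 6.91% of all genes. Itgax passed the expression filter mainly through its CB2 KO libraries, which favours this order. Summed macrophage markers, mostly Chil3, were also higher in these CB2 KO libraries. The 4 of 7 dendritic cell markers present, Itgax among them, summed to 42.6 to 83.6 CPM in WT and 35.6 to 47.4 in CB2 KO. Of these, Xcr1 was lower in every CB2 KO library (79.8, 40.5 and 52.5 CPM in WT, 20.1, 36.4 and 36.6 in CB2 KO). The part of either cell type was not tested.

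Among the genes that act on integrins from inside the cell, no direction prevailed. Of 28 tested genes of activation and adaptors, 13 had a higher and 15 a lower mean in CB2 KO (median log2 difference -0.01, and -0.04 without CB2 KO replicate 1), with 0 past edgeR's threshold, 1 at an unadjusted p under 0.05 and 0 called by DESeq2. Talin 1 (Tln1) was at 419 to 531 CPM in WT and 470 to 538 in CB2 KO, and kindlin-3 (Fermt3) at 568 to 664 and 535 to 656 CPM. Parvg, for the actin linker gamma-parvin, was at 182, 199 and 201 CPM in WT and 154, 175 and 145 in CB2 KO (log2 difference -0.29, SE 0.11). The kinase gene Ptk2b was at 191 to 201 and 131 to 181 CPM, and Itgb1bp1, for the beta 1 tail binder ICAP-1, at 49.6 to 66.6 and 36.6 to 49.5 CPM. In Parvg, Ptk2b and Itgb1bp1, 3 of 28, every CB2 KO library was below every WT library, as for 7.20% of all genes. In 1 of 28, the paxillin gene Pxn, the order was the opposite (74.5 to 82.3 CPM in WT, 84.6 to 103 in CB2 KO), as for 6.91%.

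Among integrin ligands, 9 of 13 tested had a higher and 4 a lower mean in CB2 KO, with a median log2 difference of 0.48, or 0.22 without CB2 KO replicate 1. No gene passed edgeR's test (0 of 13; 2 at an unadjusted p under 0.05), and DESeq2 called 2 higher, Icam1 and Icam5, against 1.19% of all genes. Icam1, the main ligand of LFA-1, was at 70.5, 88.9 and 75.3 CPM in WT and 119, 103 and 111 in CB2 KO, without overlap. Its log2 difference was 0.50 (SE 0.14; adjusted p = 0.389 by edgeR's quasi-likelihood test, Benjamini-Hochberg adjusted, and 0.00748 by DESeq2), and 0.45 without CB2 KO replicate 1. Icam5 was at 0 to 0.233 CPM in WT and 2.17 to 3.72 in CB2 KO. With 5, 3 and 0 counts in WT, it passed the expression filter only through its CB2 KO libraries. That filter therefore favoured its call, its higher mean and its separation from WT. Cd47, the integrin-associated protein, was at 447 to 509 and 521 to 546 CPM. In 4 of the 13, Icam1, Icam5, Cd47 and the matrix gene Tnc, the lowest CB2 KO value exceeded the highest of WT, as for 6.91% of all genes. Summed macrophage and monocyte markers were higher in the same CB2 KO libraries (12.2 to 59.2 CPM in WT, 150 to 169 in CB2 KO). In CB2 KO most of that sum was Chil3. The other 5 summed to 9.41 to 11.7 CPM in WT and 20 to 42.7 in CB2 KO. The part of these markers in the ligand values was not tested.

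Few selectin genes were read: 7 of 13 entries were in the table and 5 were tested, Selplg and Cd44 among them. The selectin ligand genes Cd24a, Glg1 and Spn were the other tested genes. Cd24a was at 0 in all WT libraries and at 6.41, 0.755 and 1.16 CPM in CB2 KO. Against a floor of 3 counts per library its mean was at least 18.3-fold higher, and at least 6.31-fold without CB2 KO replicate 1. It was not called by edgeR's quasi-likelihood test (adjusted p = 0.550), whereas DESeq2 gave an adjusted p of 3.00e-04. Because Cd24a passed the expression filter only through its CB2 KO libraries, a higher level there was favoured in advance. Spn, for CD43, was at 81.9 to 93.2 CPM in WT and 85.8 to 112 in CB2 KO, and Glg1 at 158 to 200 and 197 to 230 CPM. The median log2 difference of the 5 genes was 0.15, also with Cd24a at its bound, and 0.03 without CB2 KO replicate 1. The enzymes that decorate PSGL-1 for selectin binding showed 7 higher and 8 lower means of 15 tested (median -0.04, and 0.02 without CB2 KO replicate 1), with 0 past edgeR's threshold, 1 at an unadjusted p under 0.05 (Gcnt4) and 0 called by DESeq2. Slc35c1, the Golgi GDP-fucose carrier, was at 66.9 to 93.2 and 54.9 to 86.3 CPM, and the sulfate donor carrier Slc35b2 at 96.1 to 105 and 65.5 to 102 CPM.

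Partners of CD44 had 4 higher and 6 lower means of 10 tested (median -0.13, and -0.08 without CB2 KO replicate 1). Of these, 0 passed edgeR's threshold and 2 had an unadjusted p under 0.05, against 8.60% of all genes. DESeq2 called 1, Hmmr, lower, against 1.40% of all genes. Among the linkers from CD44 and PSGL-1 to actin was moesin (Msn), at 1649, 1721 and 1479 CPM in WT and 1384, 1431 and 1400 in CB2 KO. Ezrin (Ezr) was at 280 to 339 and 252 to 266 CPM. Radixin (Rdx), the other linker of this family, was at 104, 146 and 177 CPM in WT and 145, 158 and 133 in CB2 KO, with overlap. Hmmr, a hyaluronan-binding protein that also acts at the mitotic spindle, was at 182 to 198 and 136 to 162 CPM (log2 difference -0.37, SE 0.10). In Msn, Ezr and Hmmr, 3 of 10, every CB2 KO library was below every WT library, as for 7.20% of all genes.

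TGF-beta raises alpha E in lymphocytes and is released by alpha v heterodimers, so its signalling genes were read beside Itgae and Itgav. Of 13 tested, 3 had a higher and 10 a lower mean in CB2 KO (median -0.15, and -0.14 over 15 tested without CB2 KO replicate 1). With edgeR 0 passed and 2 had an unadjusted p under 0.05, against 8.60% of all genes. DESeq2 called the same 2, Tgfbr2 and Nrros, lower, against 1.40% of all genes. Tgfbr2, the type II receptor, was at 306, 326 and 365 CPM in WT and 251, 254 and 237 in CB2 KO. Its log2 difference was -0.42 (SE 0.09), and -0.43 without CB2 KO replicate 1; the adjusted p was 0.267 by edgeR's quasi-likelihood test, Benjamini-Hochberg adjusted, and 2.12e-04 by DESeq2. Nrros, which tethers latent TGF-beta for release by alpha v integrins, was at 259, 213 and 225 CPM in WT and 170, 129 and 169 in CB2 KO (log2 difference -0.58, SE 0.14; adjusted p = 0.324 by the same edgeR test and 0.00364 by DESeq2). Tgfb1 itself was at 178 to 186 and 158 to 211 CPM. In Tgfbr2 and Nrros, 2 of 13, every CB2 KO library was below every WT library, as for 7.20% of all genes.

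**Figure D5:**
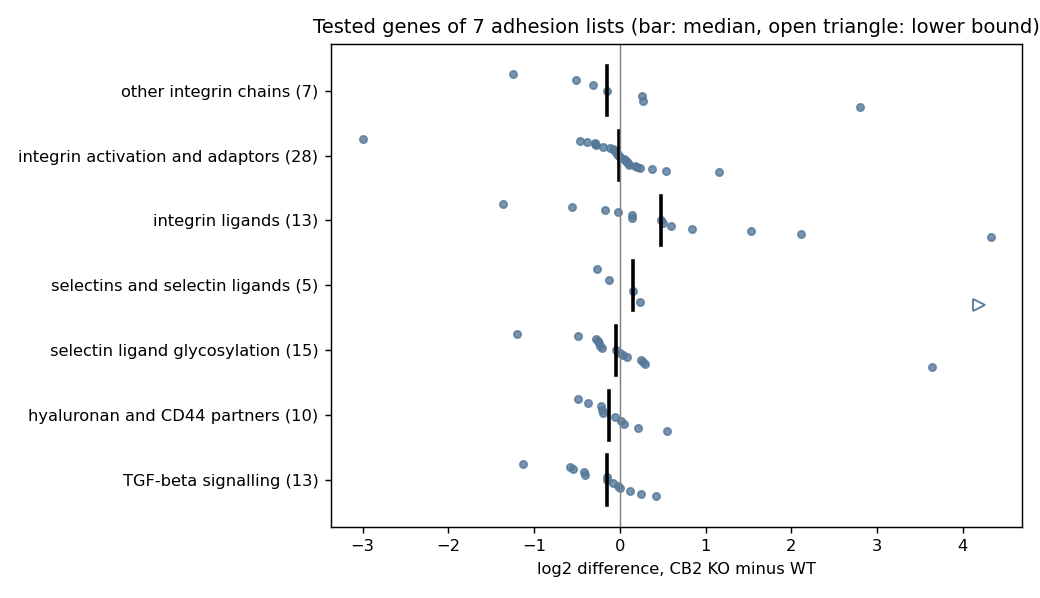
Log2 differences (CB2 KO minus WT) of the tested genes of the 7 adhesion lists, with the number tested in brackets, black bars for the medians and an open triangle for Cd24a at its lower bound of 4.19. Most points lie near 0, and the median of the integrin ligands is 0.48, or 0.22 without CB2 KO replicate 1.

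Likeness of pattern was described by Pearson's r of log2 CPM over the 6 libraries, among the genes of these lists with a mean of at least 10 CPM (72 candidates for each gene, 73 for Itgae). It carries no test, and all points share the group difference and CB2 KO replicate 1. Itgb7 was most like Selplg (r = 0.95, Spearman's rho 0.94) and then Msn (r = 0.86, rho 1.00). Selplg and Ptk2b were also alike (r = 0.95), and Cd44 was most like Ptk2b (0.89). Itgb3 was most like the galactosyltransferase gene B4galt1 (0.90) and Itgav most like Spn and Hyal2 (0.84 each). For Itga4 the nearest was Smad3 (r = 0.88, rho 0.49), and for Itgae Slc35c1 (0.97). The r of Itgae rests on few counts, 0 to 85 per library. Each r here was picked among the highest of all candidates over 6 libraries, and such picking by itself raises r. Itgal and Itgb2 had no gene above 0.78.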

How the data were processed

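Per the file headers and names, the authors deposited 1 estimated count for each gene and library from the expectation-maximization quantification of Partek; 55.6 to 58.3% of these values were whole within 0.01. A normalized signal was deposited too; it equals the estimated count plus 1 over a divisor of 19.614 to 24.528. Tools named in the submitters' processing notes are CASAVA 1.8.2, Partek and STAR (as version 3.5.3), with build mm10. Coordinates and exon lengths are from GENCODE M21, which matched all 9 genes.

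Estimated counts were rounded and fitted over the whole table with edgeR 4.0.16 (R 4.3.3): the filterByExpr filter, which kept 14084 of 18478 genes, TMM, glmQLFit (robust=TRUE, legacy=FALSE), glmQLFTest and Benjamini-Hochberg adjustment over all tested genes, threshold 0.05. Standard errors are the log2 difference over the root of F. DESeq2 1.42.0 and limma 3.58.1 served as alternatives. The fit was tested on simulated data. Totals of 17141698 to 21621008 counts set a floor (3 counts) of 0.140 to 0.174 CPM; intervals cover counting error only.

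Groups and replicate numbers come from the sample titles. The members, the lists and the tests were chosen with earlier results of these data known. The naming rule takes all 9 members, Cnr2 and the defining markers. Of each list it takes genes past the threshold plus up to 4 with the smallest p and a mean of at least 1 CPM. Tln1, Fermt3, Pxn, Spn, Rdx, Tgfb1, Xcr1, Chil3, Lyz2, Cd68, Il5, Cd3g, Trbc1 and Trbc2 were chosen after values were seen. Some genes the rule selects are given only in the counts. No explanation of a difference was tested.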

Additional observations from a re-analysis of the deposited data

How the results depend on the processing

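Calls of edgeR over all genes, 15 with all libraries, were 363 with DESeq2, 35 when a mean count of 100 or more was required, 23 with limma on the authors' normalized signal and 3 with the replicate block; leaving out 1 library left 3 to 8. Of the 9 adhesion genes, the call changed for Itgb7 with DESeq2 alone (log2 difference -0.43, adjusted p = 0.00615); over its other 16 alternatives the difference lay between -0.56 and -0.33, and the adjusted p reached 0.632. Itgav, Itgal, Itgb3, Cd44 and Selplg kept their direction and stayed uncalled under all 17 alternatives each. Leaving out 1 library moved Itgal between -0.28 and -0.08, Itga4 between -0.47 and 0.13, Itgae between -3.14 and 0.78, and Itgb2 between -0.002 and 0.13. The log2 chain ratios moved between -0.16 and 0.69 (Itga4 to Itgb7), -1.81 and 0.34 (Itgae to Itgb7), -0.37 and -0.1 (Itgal to Itgb2) and 0.27 and 1.02 (Itgav to Itgb3). The cause was not tested. Itgae could not be fitted with the mean count filter of 100. Same-numbered libraries deviated together only weakly (correlations 0.07, 0.03 and 0.02), and WT replicate 3 correlated best with CB2 KO replicate 2 (0.03), so the numbers were not taken to pair the samples; with the block the log2 difference of Itgb7 was -0.44 (adjusted p = 0.573, edgeR) and no adhesion gene was called. Depth was least for Itgae, at 0 to 85 counts per library.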
